A study of Rattus norvegicus with 8 samples.

Results

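The genes of the Hippo pathway described here are the angiomotins *Amot*, *Amotl1* and *Amotl2*, the coactivators *Yap1* and *Wwtr1*, the transcription factors *Tead1* and *Tead3*, the kinases *Lats1* and *Lats2*, and their upstream activator *Nf2*. Every rat probe that the array names with 1 of these symbols was taken, which gave 17 probes of 10 genes, out of 45598 rat probes with 34912 different names. The 10 genes were chosen on measured values, since a lower *Amot* signal in irradiated cells was already known from these arrays. The differences between irradiated and non-irradiated cells are therefore given for them as a description, with no p-value.

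Osteoblast-like cells came from the calvariae of Wistar rats aged 3 to 5 days and had been released by enzyme digestion, so they are primary cells of mixed origin and not a clonal line. Cells of 4 cultures were exposed to an Er:YAG laser, a mid-infrared laser used in dentistry, for 60 s at 3.3 J/cm2, with the medium taken off during exposure, and were collected after 6 h. The other 4 cultures were not irradiated (0 J/cm2) and were collected at the same time. Both groups were kept in medium whose osteoinductive form held ascorbic acid, β-glycerophosphate and dexamethasone, and the cultures of a replicate number were compared as a pair, since the array records give both the same animal.

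In the Hippo pathway, LATS kinases phosphorylate the coactivators YAP and TAZ (the product of *Wwtr1*), which then stay in the cytoplasm and are degraded. Without that phosphorylation they enter the nucleus, bind TEAD proteins at DNA and switch on genes such as those for the matricellular proteins CTGF and CYR61. Angiomotins bind YAP and TAZ at cell junctions and on actin filaments, merlin (the product of *Nf2*) brings LATS to the membrane, and in bone-forming cells the pathway is known as a sensor of stiffness and cell shape. Much of this control acts on phosphorylation and location of the proteins, which an RNA array does not measure.

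The probes of *Amot* and *Lats1* are shown first, because the probes of each gene gave different results, together with the probe of *Amotl1* and both probes of *Yap1*, for which single arrays stood apart. The first 30 of the 60 bases of each probe are printed from 5′ to 3′ as the array lists them.

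Amot A_64_P071188: gggactttttattggactctggtagtacat
Amot A_42_P746851: ggagaagggttggaagcatgtacattttct
Amot A_44_P351921: tactctcagctcattcgaagactggcagtc
Lats1 A_44_P1100169: acttaaactttcatggtgttggaagctttg
Lats1 A_44_P205923: agaacggtgctgatgaaataaaggctcatc
Lats1 A_44_P418315: atgcgttctataattatgtacttgtacata
Amotl1 A_44_P372002: acacccagtaggtattctgtaaaacggata
Yap1 A_44_P1086115: aagtttactacataaaccataagaacaaga
Yap1 A_64_P302952: gccacccctgctgctcaacatctcagacag

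Positions are those of genome build rn4 as written on the array, and which exon or untranslated region they fall in is not given here. The *Amot* probe A_64_P071188 lies at chrX:33062445-33062504 on the plus strand and starts at base 3847 of transcript ENSRNOT00000090918. A_42_P746851 lies at chrX:33065596-33065655 and starts at base 6998 of the same transcript, so that the probes are 3151 bases apart both in the genome and in the transcript. A_44_P351921 lies at chrX:33061059-33061118 and was designed on another transcript, ENSRNOT00000049482.

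The *Lats1* probes A_44_P205923 (chr1:2382396-2382455) and A_44_P418315 (chr1:2385443-2385502) belong to NM_001134543, and A_44_P1100169 (chr1:2373540-2373599) to the predicted transcript XM_008758607. *Amotl1* lies at chr8:11292275-11292334, and the *Yap1* probes at chr8:4806939-4806998 and chr8:4846155-4846214, all on the minus strand. The *Wwtr1* probe covers 1466 bases of the genome (chr2:146717947-146719412) with its 60 bases, so it spans a junction between exons.

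On the arrays as a whole, 26543 to 29946 probes of the non-irradiated and 28173 to 30490 probes of the irradiated arrays were well above background, and 26400 probes could be tested. With limma and Benjamini-Hochberg adjustment 0 probes differed at an adjusted p below 0.05 (0%), and the smallest adjusted p was 1.00. At an unadjusted p below 0.05, 1.47% of probes were higher and 1.09% lower in irradiated cells. Osteoblast markers were present, with 9 of 10 well above background on all 8 arrays and *Phex* not, and the endothelial gene *Tie1* and the epithelial gene *Epcam* were above background on 0 arrays. Of the other marker lists, 5 of 8 endothelial, 4 of 7 macrophage, 4 of 7 epithelial, 5 of 6 muscle and 4 of 5 cartilage genes were above background on all 8 arrays. The summed cartilage signal was 5903 and 6390 on the arrays of replicate 1 and 38302 to 84685 on the other 6, and the summed muscle signal was highest on replicate 1, at 2739 and 2074 against 314 to 861. What part these cells have in the results was not tested, and in bulk RNA fewer cells of a type and less RNA per cell cannot be told apart.

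The cultures of replicate 2 resembled each other least. Deviations from the group mean correlated across probes at 0.0553 between both arrays of replicate 2, against 0.570 to 0.749 in the other numbers, and at 0.437 between non-irradiated array 1 and irradiated array 2. In the summed muscle signal the arrays of every number were nearer to each other than to any other array, at 776 and 861 for replicate 2, which does not bear on their order within a number. The summed cartilage, osteoblast, macrophage, endothelial and epithelial signals did not pair the arrays of replicate 2 in this way. The cartilage signal was 53197 on non-irradiated and 38302 on irradiated array 2, with the arrays of replicate 4 between them at 44163 and 44664. Whether a sample or label was exchanged was not tested, so the differences of pair 2 rest on its labels, and values from pairs 3 and 4 alone are given for the members on which these arrays stood apart.

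Angiomotin (*Amot*), which holds YAP at junctions and on actin, was read by 3 probes, and only 1 of them was lower on every irradiated array. With A_64_P071188 the normalized log2 signal was 5.08, 5.20, 4.85 and 5.30 on non-irradiated arrays 1 to 4, and 3.998, 4.47, 3.95 and 4.77 on irradiated arrays 1 to 4. The lowest non-irradiated array was above the highest irradiated array, so the groups did not overlap. Within pairs the log2 differences, irradiated minus non-irradiated, were -1.09, -0.73, -0.90 and -0.53, with a mean of -0.81 (standard error 0.13, n = 4 pairs, 95% interval -1.14 to -0.48). This is a signal 1.75 times as high in non-irradiated cells, and the interval is given for precision, since the gene had been chosen from this difference.

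This probe was dim. Its processed signal before normalization was 39.0, 41.4, 27.99 and 31.5 on the non-irradiated and 20.3, 26.7, 13.2 and 22.0 on the irradiated arrays, and it was well above background on all 8. The error that the scanner software gives for these signals was 12.3% to 21.4% of the signal. The groups did not overlap before normalization either.

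The probe A_42_P746851, which reads the same transcript, showed no such difference. Its log2 signal was 12.65, 12.77, 12.86 and 12.99 on the non-irradiated arrays and 12.44, 13.14, 12.73 and 12.94 on the irradiated arrays. The groups overlapped throughout, with the highest value on irradiated array 2 and the lowest on irradiated array 1. The mean difference was -0.01 (standard error 0.14, 95% interval -0.35 to 0.33), an interval that does not reach the difference of the dim probe. Its processed signal of 5965 to 8747 carried a scanner error of 10.0%, below that of the dim probe.

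The third *Amot* probe, A_44_P351921, read 4.46, 5.37, 6.08 and 6.25 on the non-irradiated and 5.32, 5.87, 5.69 and 6.08 on the irradiated arrays. Pairs 1 and 2 were higher by 0.86 and 0.50 and pairs 3 and 4 lower, at -0.39 and -0.17, giving a mean of 0.20 (standard error 0.23). Over the 8 arrays the centred profiles of the *Amot* probes differed from each other by a root mean square of 0.44 to 0.73 log2 units. Why the probes of 1 gene differ was not tested.

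**Figure D1:**
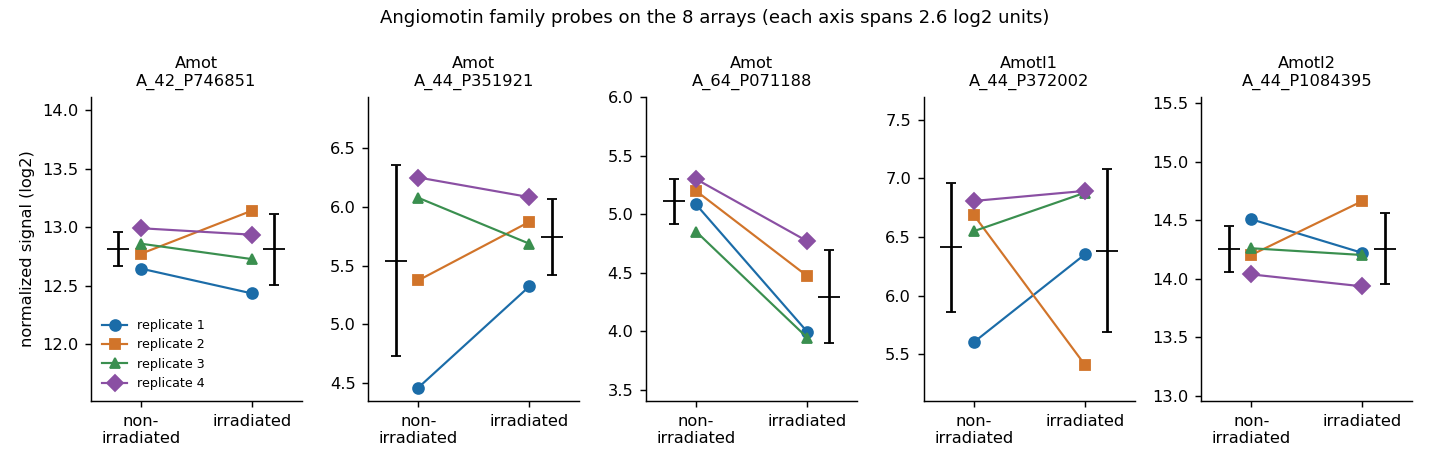
Normalized log2 signal of the 5 angiomotin family probes on non-irradiated and irradiated arrays, with a line for each replicate number and, beside the points, the group mean and SD (n = 4); every vertical axis spans the same number of log2 units around the probe's own mean. All 4 lines slope down for *Amot* A_64_P071188, and the lines cross or lie level for the other 4 probes.

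In the authors' deposited log2 table, which has 1 row per transcript name, the row under A_42_P746851 averages 2 probes, the bright and the dim one of ENSRNOT00000090918. That row read 9.33, 9.45, 9.37 and 9.68 on the non-irradiated and 8.94, 9.40, 9.10 and 9.42 on the irradiated arrays, a mean difference of -0.24 (standard error 0.10). When the authors' processing was repeated with the probes kept apart, the dim probe gave -0.48 (standard error 0.09) and the bright probe 0.00 (standard error 0.11). The size of the difference at the dim probe moved with the background correction and was -0.27 with normexp and -0.28 with uncorrected signals. The dim probe was lower in 4 of 4 pairs in each of these settings.

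*Amotl1*, which encodes a related scaffold of tight junctions, varied more than any other member between the cultures of a pair. Its log2 signal was 5.60, 6.69, 6.55 and 6.81 on the non-irradiated and 6.35, 5.41, 6.88 and 6.89 on the irradiated arrays. Non-irradiated array 1 and irradiated array 2 were lowest. The pair differences of 0.75, -1.28, 0.33 and 0.09 averaged -0.03 (standard error 0.33). Another probe that the array describes as *Amotl1* without its symbol, A_64_P120759, read 6.67, 7.26, 7.11 and 7.34 against 7.16, 6.64, 7.17 and 7.28, with the same 2 arrays lowest.

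*Amotl2*, the third angiomotin and a known target of YAP itself, was measured by 10 spots of 1 probe on each array, and the spots of an array had an SD of 0.03 to 0.05 log2 units. Its signal was 14.51, 14.20, 14.26 and 14.04 on the non-irradiated and 14.22, 14.66, 14.20 and 13.94 on the irradiated arrays. Here non-irradiated array 1 and irradiated array 2 were the highest. The mean difference was 0.00 (standard error 0.15, 95% interval -0.37 to 0.38), so the spread between cultures was several times that between spots.

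Both coactivators were present in every culture. The *Yap1* probe A_64_P302952 read 9.95, 9.78, 9.69 and 9.76 on the non-irradiated and 9.67, 10.44, 9.96 and 9.72 on the irradiated arrays. The probe A_44_P1086115 read 7.22, 6.29, 6.35 and 6.52 against 7.04, 7.18, 6.58 and 6.36. Both *Yap1* probes moved in the same direction in 4 of 4 pairs, down in pairs 1 and 4 and up in pairs 2 and 3. Their mean differences were 0.15 (standard error 0.18) and 0.19 (standard error 0.21), with 0.65 and 0.89 in pair 2 alone, and the groups overlapped.

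*Wwtr1*, which encodes TAZ, read 6.71, 6.89, 7.10 and 7.31 on the non-irradiated and 6.86, 6.74, 6.85 and 7.27 on the irradiated arrays. The groups overlapped, and replicate 4 was the highest in both. Its mean difference was -0.07 (standard error 0.12, 95% interval -0.37 to 0.22).

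The TEAD factors, which carry YAP and TAZ to DNA, differed little between groups. *Tead1* A_42_P489681 read 11.37, 11.10, 11.09 and 11.14 on the non-irradiated and 11.23, 10.99, 10.82 and 11.12 on the irradiated arrays, with pair differences of -0.27 to -0.02 and a mean of -0.13 (standard error 0.11). *Tead3* A_64_P164330 read 12.50, 12.06, 12.09 and 12.34 against 12.48, 11.94, 12.07 and 12.27. Its pair differences were also all below 0, at -0.12 to -0.02, with a mean of -0.06 and an SD of 0.05. Its standard error of 0.11 is limma's, moderated over all tested probes. The values of both genes overlapped between groups, and for *Tead3* the SD between cultures of a group was 0.21 to 0.24.

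The dimmer *Tead1* probe, A_64_P164340, read 5.83, 5.63, 5.69 and 5.85 on the non-irradiated and 5.48, 5.74, 5.27 and 6.23 on the irradiated arrays. It was lower in pairs 1 and 3 and higher in pairs 2 and 4, so that it did not share the direction of the brighter probe in every pair. Of *Tead3*, a probe listed without the symbol, A_44_P919954, had a mean difference of -0.08 (standard error 0.21), lower in 2 of 4 pairs.

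*Lats1*, a kinase that phosphorylates YAP and TAZ, was read by 3 probes, and again the dimmest differed most. With A_44_P1100169 the log2 signal was 5.15, 4.12, 5.43 and 5.09 on the non-irradiated and 4.99, 3.52, 4.72 and 4.58 on the irradiated arrays. Replicate 2 was lowest in both groups, and irradiated array 2 was the 1 array on which the probe was not well above background. The pair differences were all below 0, at -0.16, -0.60, -0.71 and -0.51, and averaged -0.49 (standard error 0.13), though the groups overlapped. With normexp this mean was -0.11, and with uncorrected signals -0.16.

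The other *Lats1* probes had means closer to 0. A_44_P205923 read 6.55, 6.72, 6.50 and 6.63 on the non-irradiated and 6.95, 6.64, 6.24 and 6.24 on the irradiated arrays, a mean of -0.09 (standard error 0.16). A_44_P418315 read 7.41, 7.86, 7.92 and 7.76 against 7.91, 7.05, 7.52 and 7.86, a mean of -0.15 (standard error 0.23). In pair 1 both were higher after irradiation, where the dim probe was lower.

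*Lats2*, the second kinase of that pair, had the smallest range over the 8 arrays of all tested member probes, 0.47 log2 units, with 14.02, 13.93, 14.02 and 13.69 on the non-irradiated and 14.16, 13.83, 13.91 and 13.74 on the irradiated arrays. Its mean difference was 0.00 (standard error 0.11, 95% interval -0.28 to 0.27). *Nf2* A_64_P119413 read 8.97, 9.51, 9.61 and 9.38 against 9.36, 8.94, 9.70 and 9.50, with a mean of 0.00 (standard error 0.18). Pair 2 was at -0.57 and the other pairs at 0.08 to 0.39. The other *Nf2* probe, A_44_P1112831, was well above background on 0 arrays in either group and was not tested.

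Across the members, 16 of 17 probes passed the filter on dim signals. The median difference was -0.05, against 0.00 over all tested probes, and it was -0.10 without replicate 1 and -0.02 without replicate 3. There were 4 member probes lower in all pairs, of *Amot*, *Lats1*, *Tead1* and *Tead3*, where 3.66% of all probes were, and 0 higher in all pairs, where 3.84% were. The *Lats1* probe passed the filter through the non-irradiated group only, and with the filter on all 8 arrays 3 were lower. The groups did not overlap for 1 member probe, that of *Amot*, against 0.556% of all probes. Because the genes were chosen from this comparison, nothing is read from these shares. For 13 of 16 probes the mean difference was smaller in size than its standard error, which limma moderates over all tested probes. For 15 of 16 the 95% interval lay within a 2-fold change in either direction.

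**Figure D2:**
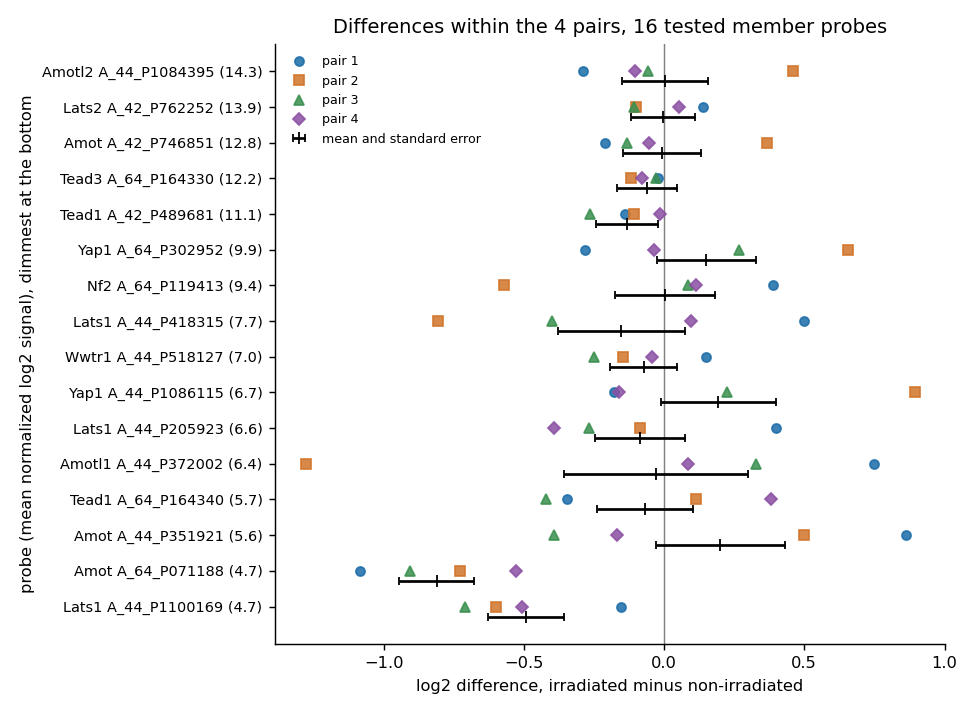
Log2 difference within each of the 4 pairs for the 16 tested member probes, ordered by mean signal with the dimmest at the bottom, and below each set of symbols the mean with its standard error. *Amot* A_64_P071188 and *Lats1* A_44_P1100169, the dimmest of the 16, lie to the left of 0 in all pairs, and pair 2 lies farthest out for *Amotl1*, *Yap1* and *Amotl2*.

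Dim probes varied more on these arrays in general. Mean differences had an SD of 0.24 log2 units over the 8455 probes with a mean log2 signal below 6, of 0.13 over 9949 probes between 6 and 10, and of 0.09 over 7846 probes above 10. A mean difference beyond 0.5 in size was found for 4.72%, 0.291% and 0.280% of these probes. Of the members, 4 probes fell in the dim range, with mean differences of -0.81 to 0.20, 7 in the middle range, with -0.15 to 0.19, and 5 in the bright range, with -0.13 to 0.00.

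**Figure D3:**
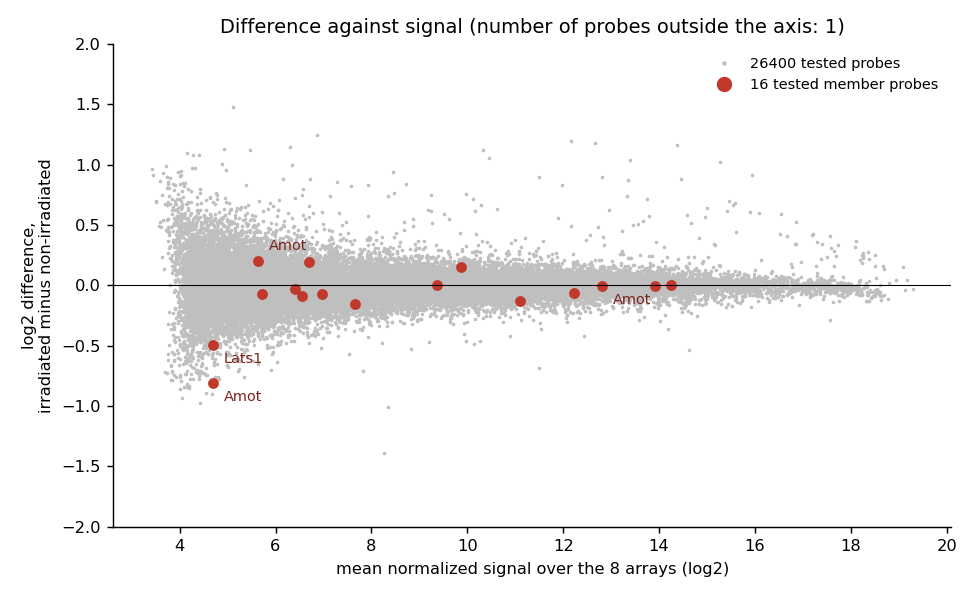
Mean log2 difference, irradiated minus non-irradiated, against mean log2 signal for the 26400 tested probes (grey) and the 16 tested member probes (red). The grey cloud is widest at low signal, and the 2 member probes farthest from 0, of *Amot* and *Lats1*, lie at its dim end.

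For several members, as for a like share of all probes, non-irradiated array 1 and irradiated array 2 stood apart from the other 6. Both were below the other 6 arrays for *Amotl1*, *Wwtr1*, *Nf2* and *Lats1* A_44_P418315, and both above them for *Amotl2* and *Yap1* A_44_P1086115. That is 6 of 16 member probes, and 33.5% of all probes did the same. The count is near the share of all probes, so nothing particular to the members is read from it. Of the 28 possible pairs of arrays these 2 had the highest share, followed by the arrays of replicate 4 with 28.4%, while the median pair had 4.85%. On the same 2 arrays the summed osteoblast signal was lowest, at 546866 on irradiated array 2 and 676825 on non-irradiated array 1 against 686243 to 757674 on the other 6, and so was the summed macrophage signal, at 1169 and 1331 against 1451 to 1720. The summed endothelial signal was highest on irradiated array 2, at 18210.5 against 7050 to 13095 elsewhere, and non-irradiated array 1 lay within that range at 9792. What part these cells have in the pattern was not tested, and since 1 lies in each group, what they share enters the mean difference with opposite signs.

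**Figure D4:**
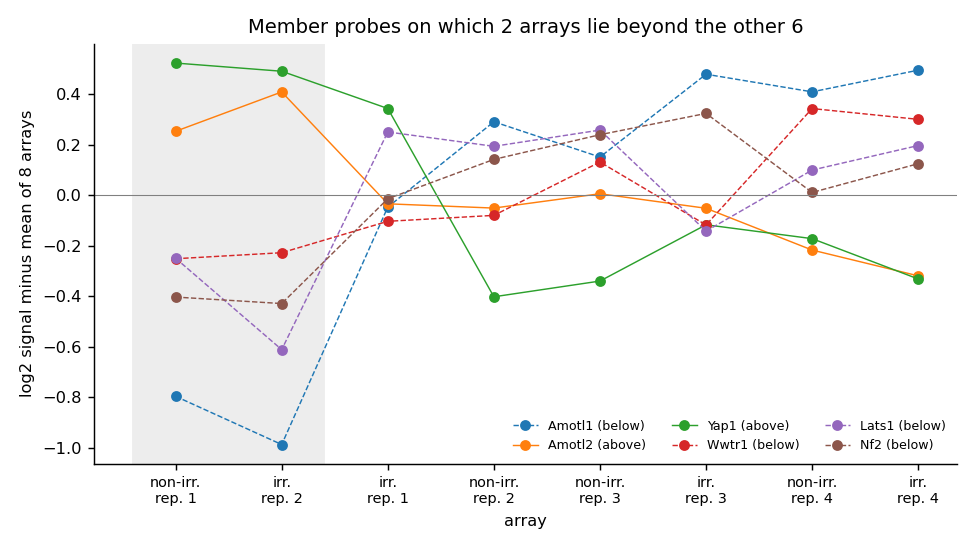
Log2 signal of 6 member probes on each array, minus the probe's mean over the 8 arrays, with non-irradiated replicate 1 and irradiated replicate 2 placed first and shaded. Solid lines (*Amotl2*, *Yap1*) are highest and dashed lines (*Amotl1*, *Wwtr1*, *Lats1*, *Nf2*) lowest on the shaded arrays.

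In pairs 3 and 4, which hold neither of these arrays, *Amot* A_64_P071188 had a mean difference of -0.72 and *Lats1* A_44_P1100169 of -0.61. The *Yap1* probes had 0.12 and 0.03 there, *Amotl1* 0.21 and *Amotl2* -0.08. *Wwtr1* was at -0.15 in these pairs, *Lats1* A_44_P418315 at -0.15 and *Nf2* at 0.10. Bright *Amot* stayed near 0, at -0.09, and the third *Amot* probe, which was higher on average over all pairs, was at -0.28.

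Differences between replicate numbers are estimated apart from the irradiation difference, so they were tested for the members. Both use the same spread of pair differences as their error, so this test is not independent of how the members were chosen. With the limma F-test over the 4 numbers, 1 of 16 member probes passed an adjusted p below 0.05, against 3.26% of all probes. This was *Lats1* A_44_P1100169 (limma F-test, adjusted p = 0.0497), which was lowest in replicate 2 in both groups. The arrays of replicate 2 resembled each other least, and the probe passed the filter through the non-irradiated group only. On irradiated array 2, one of the arrays behind that low value, the probe was not well above background, so it was not among the probes tested when all 8 arrays had to be above background. The call was also made with outlying spots kept, and 0 member probes passed in 13 other settings, that filter among them. The next smallest were *Amot* A_44_P351921 (limma, adjusted p = 0.168), which was lowest in replicate 1, and *Amot* A_64_P071188 (limma, adjusted p = 0.203). The p-values measure the spread between these 4 animals' cultures.

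Of genes that are no members, those whose profile over the 8 arrays was among the 5 most like that of the bright *Amot* probe included *Acot13*, an acyl-CoA thioesterase, *Paics*, an enzyme of purine synthesis, *Ccdc181* and the transcription factor gene *Zbtb7b*. Their centred profiles differed from that of *Amot* by a root mean square of 0.05 to 0.06 log2 units over 8 arrays, out of 26234 probes compared. These 4 had mean differences between -0.07 and 0.00, near that of bright *Amot*, which follows from the way they were chosen.

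The rest of the pathway was read from a list of 59 genes that holds none of the members, of which 57 were on the array by symbol and 53 could be tested, with 1 probe per gene. *Tead4* and *Arhgef17* were not listed by symbol, and *Wwc1*, *Vgll1*, *Vgll2* and *Ankrd1* were not bright enough to test. With limma, 0 of the 53 passed an unadjusted p below 0.05 in either direction, 0 passed an adjusted p below 0.05, and the smallest unadjusted p was 0.108. Of all tested probes, 1.47% were higher and 1.09% lower at that unadjusted p, so 0 of 53 is near the share of all probes. That also holds for the role groups below, and nothing about the pathway is read from these counts. The median difference was -0.02 against 0.00 over all probes, with 35 genes below 0 and 18 above.

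Among core kinases and adaptors, 0 of 11 passed the test. *Mob1b*, an adaptor that activates LATS, had the lowest difference, -0.30 (standard error 0.21), and *Taok1*, a kinase upstream of MST kinases, the highest, 0.20 (standard error 0.22). Without replicate 1, *Mob1b* and *Taok1* passed an unadjusted p below 0.05 in opposite directions, and neither passed after adjustment. The share of all probes that passed in that setting is not given here, so nothing is read from these calls. Of upstream and junction regulators 0 of 14 passed, with *Strn3*, a subunit of a phosphatase complex that acts on MST kinases, lowest at -0.10 (standard error 0.20).

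Enzymes that turn over angiomotin protein had 0 of 7 past the test. The ubiquitin ligase *Nedd4l* was at -0.29 (standard error 0.37), with -1.73 in pair 2 alone, and the ligase *Itch* at 0.10 (standard error 0.25), with 1.01 in that pair. Of other TEAD and VGLL factors 0 of 3 passed, from *Vgll3* at -0.07 (standard error 0.14) to *Vgll4* at 0.08 (standard error 0.11). Of *Tead4*, 3 probes known by description had mean differences of -0.30, -0.07 and 0.04.

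Target genes of YAP and TEAD are commonly used as a readout of the pathway, and 0 of 18 passed the test, which is near the share of all probes. Their median difference was -0.06, with 12 genes below 0 and 6 above. *Fjx1*, a regulator of cell polarity, was lowest at -0.29 (standard error 0.26), and *Asap1*, which acts on the cytoskeleton, highest at 0.09 (standard error 0.12). The classical targets *Ctgf* and *Cyr61* were named after their values were seen, at -0.06 (standard error 0.17, 95% interval -0.47 to 0.34) and -0.05 (standard error 0.13, 95% interval -0.38 to 0.28). *F3*, the tissue factor gene, read 13.01, 12.32, 12.10 and 12.42 on the non-irradiated and 12.92, 12.02, 11.64 and 12.35 on the irradiated arrays, and had the smallest p of the list (limma, unadjusted p = 0.108, mean -0.23, lower in 4 of 4 pairs). *F3* was named for that p. It passed an unadjusted p below 0.05 with normexp and with uncorrected signals, and not after adjustment. The shares of all probes that passed in those settings are not given here, so nothing is read from it. Of the 53 genes, 2 were lower in 4 of 4 pairs and 0 higher, where 3.66% of all probes were lower and 3.84% higher.

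**Figure D5:**
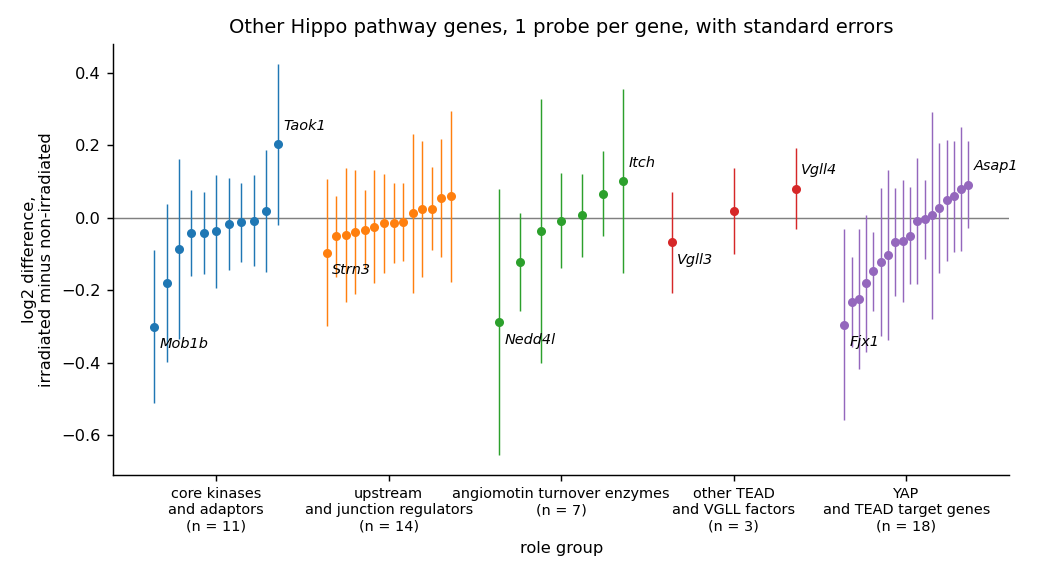
Mean log2 difference, irradiated minus non-irradiated, of the 53 other Hippo pathway genes, sorted within their role group, with standard errors as bars; the lowest gene of each group is named, and the highest except among upstream and junction regulators. Most bars reach 0, and all differences lie between -0.30 and 0.20.

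Between replicate numbers, 1 of the 53 genes differed at an adjusted p below 0.05 with the limma F-test, a smaller share than the 3.26% of all probes, so nothing particular to the pathway is read from it. This was *Igfbp3*, which encodes a binding protein of insulin-like growth factors (adjusted p = 0.0183). It was highest in replicate 1, at 12.64 and 12.22, and lowest in replicate 4, at 9.71 and 9.81, while its difference between irradiated and non-irradiated cells was 0.05 (standard error 0.17).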

How the data were processed

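RNA of 8 cultures, 4 per group, was labeled with Cy3 and read on 1-color Agilent arrays with Agilent Feature Extraction 11.0.1.1, per the submitters' processing notes. Spot intensities were deposited by the authors, with a processed signal corrected for background but not normalized between arrays, and a table of 24029 log2 values per array that they had quantile normalized. The 8 arrays shared 1 slide and 1 scan. The groups lay in different columns of that slide, so slide column and irradiation cannot be told apart.

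Processed signals were taken to log2, spots marked as outlying were left out, and the 58717 spots of rat probes were quantile normalized. Spots of a probe were averaged. A probe was tested when, in 1 group or both, over 50% of its spots were well above background on each of the 4 arrays. Groups were compared in limma 3.58.1 (R 4.3.3), blocked on the replicate number, two-sided, with Benjamini-Hochberg adjustment over all tested probes. The fit was checked on data with known answers. Gene names are those of the array. The number of arrays limits the precision, and 0 member spots were saturated.

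The block rests on the animal number in the array records. Deviations from the group mean correlated within numbers at 0.608, 0.0553, 0.570 and 0.749 across probes, which are not independent replicates, and non-irradiated array 1 correlated with irradiated array 2 at 0.437.

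The members and gene lists were chosen with earlier results of these data known. Named were all members, other Hippo genes with an unadjusted p below 0.05 and those with the lowest and highest difference of each role group, the 5 probes most like bright *Amot* by root mean square, and the 3 member probes with the smallest F-test p; 2 genes that this rule names are not reported here. Of a gene outside the members, the probe with the highest mean signal was used.

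Settings tried besides were 75th percentile scaling, normexp (offset 50), uncorrected mean signals, outlying spots kept, the deposited log2 values, no filter, a filter on all 8 arrays, leaving out each replicate number, the block dropped or random, eBayes with trend, and averaged probes of a gene. Keeping only pairs 3 and 4 and the authors' processing rebuilt per probe were chosen after seeing the data. The rebuilt values matched all 24029 deposited rows to within 5e-09.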

Additional observations from a re-analysis of the deposited data

How the results depend on the processing

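The dim *Amot* probe was lower in irradiated cells in all settings that gave it a value. The gene had been chosen from this difference, and the probe was lower in every pair. Its direction was therefore bound to stay with pairs left out, another filter or no block, so those settings are no check. Only changes in how signals were processed could have altered it. The probe's difference of -0.81 was -0.27 with normexp and -0.28 with mean signals without background correction. It was -0.48 when the authors' steps were rebuilt for single probes. It was -0.91 to -0.72 with 1 replicate left out. In the deposited log2 values it has no row of its own. The bright probe stayed between -0.13 and 0.06 when 1 replicate was left out.

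Member probes lower in all pairs numbered 4 to 6 with 1 replicate left out and 9 in pairs 3 and 4 only, and those higher in all pairs 0 to 2 and 2, where fewer pairs have to share a direction. Those lower numbered 3 with the filter on all 8 arrays, with the deposited values and with the rebuilt processing, and 5 with no filter. The shares of all probes in these settings are not given here, so nothing about the members is read from these counts. The median member difference of -0.05 ranged from -0.10 to -0.02 with 1 replicate left out. The *Lats1* call between replicate numbers was the only one, and 0 members passed with 75th percentile scaling, normexp, mean signals, deposited values, no filter, all 8 arrays above background (where that probe was not tested), the trend prior, pairs 3 and 4 only, the rebuilt processing or any replicate left out (0 to 0). This count was not made without the block, with a random block or with averaged probes.

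Other Hippo genes at an unadjusted p below 0.05 numbered 0 higher and 0 lower. Normexp and mean signals gave 1 lower, *F3*, and pairs 3 and 4 only 1 lower, *Mob1b*. With 1 replicate left out there were 0 to 1 higher and 0 to 1 lower. In the main setting 1.47% of all probes were higher and 1.09% lower at that p. The shares in the other settings are not given here, so nothing is read from these counts or from the genes named. Adjusted counts were 0 in all 17 alternatives.

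Without the replicate block the differences of the members are the same by construction, and the counts of other Hippo genes were 0, as with a random replicate block. Of 179 further values of member probes, 175 moved by less than the spread between pairs. These 175 include the values without the block, with no filter and with the filter on all arrays. A filter or block does not change a probe's mean difference, so those values could not move and are no check. The 175 also include the values from fits to fewer pairs. The spread used here is the SD of the same pair differences. Leaving out pairs as was done here cannot shift their mean by that much, so these values are no check either. The 4 values that moved farther are those of *Lats1* A_44_P1100169. They were -0.11, -0.16, -0.18 and -0.18 with normexp, mean signals, deposited values and the rebuilt processing. Causes were not tested.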
